A study of Mus musculus with 10 samples.

Results

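Interferon-stimulated genes were examined in the liver of high-fat-fed mice with and without malic enzyme 1 (Me1) in hepatocytes. They were chosen as a named list of 44 genes, matched by gene symbol to the deposited table of 31218 genes, and all 44 were found and tested. Livers came from 5 mice labelled Me1 flox/flox (Flox, the controls) and 5 labelled Me1 Alb/Alb (HKO, the hepatocyte-specific knockout named in the study's design text). All 10 mice had the diet for 16 weeks, so no group without the diet was compared. The labels name no Cre line, sex, age, litter or batch, and each liver was treated as a separate mouse. The Flox livers are FF21, FF30, FF54, FF62 and FF63 and the HKO livers are KO22, KO38, KO44, KO55 and KO64, and values are listed in that order.

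Interferons are secreted proteins that bind cell-surface receptors and activate JAK kinases, which phosphorylate STAT proteins. STAT proteins join IRF9 to form ISGF3, which binds the interferon-stimulated response element (ISRE) in target promoters, while STAT dimers bind the gamma-activated sequence (GAS). The target genes encode sensors of foreign nucleic acid, inhibitors of viral replication and GTPases that act on intracellular pathogens. In the liver they are expressed by hepatocytes as well as by Kupffer cells and other immune and endothelial cells.

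Me1, the deleted gene, was 228, 160.3, 164, 145 and 163 CPM in the Flox livers and 21.4, 22.2, 20.5, 21.4 and 26.9 CPM in the HKO livers. It was far lower in every HKO liver than in any Flox liver (7.65-fold, log2 fold change -2.93, SE 0.13, adjusted p = 8.48e-07 by edgeR), so each library matched its label. Sequencing depth was similar across livers, from 52790000 to 60765120 counts. CPM are counts scaled to a common library size with TMM factors, and listed values are in CPM unless FPKM is named. The TMM factors did not overlap between groups, at 0.896 to 0.965 in Flox and 0.998 to 1.16 in HKO. This scaling lowers CPM in HKO relative to Flox. Hepatocyte markers summed to 85420 to 103300 CPM in Flox and 61820 to 77450 CPM in HKO, and 1 of 7 passed the test. KO55 and KO64 stood apart from the other livers. Epidermal markers summed to 257 and 278 CPM there against at most 5.82 elsewhere, and skeletal muscle markers to 204 and 225 CPM against at most 5.86. Xist was 23.1 and 24.2 CPM in KO55 and KO64 and 0.410 to 3.17 CPM elsewhere, while the Y-linked gene Ddx3y was 39.0 to 57.8 CPM across all 10 livers. The part of these differences in the results was not tested, and counts of calls are also given without these livers.

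Of the 44 genes, 10 were lower in HKO and none was higher. In the quasi-likelihood test of edgeR, two-sided and adjusted by Benjamini and Hochberg over 18065 genes, 34 genes did not pass at an adjusted p of 0.05. The 10 were Mx2, Parp9, Irf9, Rsad2, Cmpk2, Ifi27, Ifit3, Iigp1, Irgm1 and Isg15. They make 22.7% of the list, against 6.40% of all tested genes called lower. The share of all tested genes called higher was 4.86%. At an unadjusted p under 0.05, 17 of the 44 were lower and 0 higher. The median log2 fold change of the 44 genes was -0.47, against 0.02 for all tested genes. In bulk liver, fewer cells of a type and less RNA per cell cannot be told apart.

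The direction of the genes that did not pass depended on the scale. The log2 fold change was negative in 39 of the 44 genes on counts scaled by TMM factors, against 48.0% of all tested genes. It was negative in 38 with upper-quartile factors and in 25 on the deposited FPKM. The deposited FPKM are not adjusted for library composition, and on them the median of all genes was itself 0.15 higher in HKO. The median of the 44 genes on that scale was -0.17, which is -0.32 relative to all genes. Limma on log2(FPKM + 0.5) called 1 of the 44 lower (Mx2), against 2.19% of all genes tested there. Once each liver's FPKM was divided by its TMM factor, a setting chosen after seeing the data, limma called 10 of the 44 lower against 6.54% of all genes. DESeq2 called 14 of the 44 lower, against 9.0% of all genes: the 10 above and Dhx58, Ifit1, Ifit3b and Usp18.

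**Figure D1:**
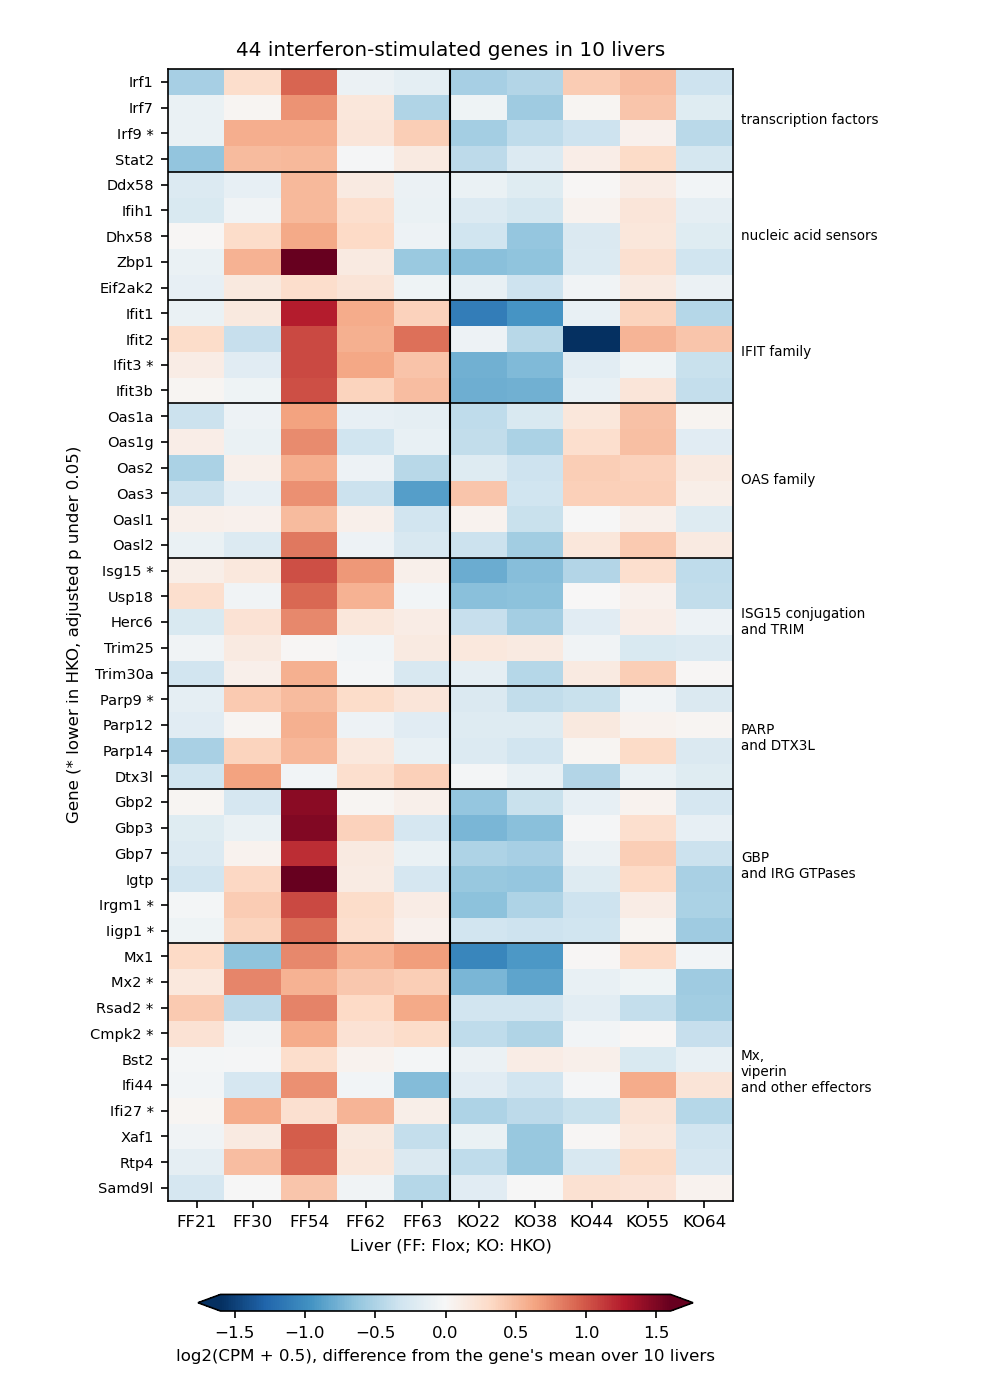
Level of each of the 44 genes in each liver, as the difference of log2(CPM + 0.5) from that gene's mean over the 10 livers; red is higher, blue is lower, and the colour scale ends at 1.6 in each direction. Genes are grouped by role, and asterisks mark the 10 genes that were lower in HKO. FF54 is the reddest column, and KO22 and KO38 are mostly blue.

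The difference between the groups was smaller without liver FF54. This liver was chosen for its high level of these genes, so a smaller difference without it follows from that choice. The mean log2(CPM + 0.5) of the 44 genes was 4.29, 4.496, 5.16, 4.58 and 4.37 in the Flox livers and 4.02, 3.95, 4.27, 4.58 and 4.18 in the HKO livers. FF54 was the highest of all 10, and KO55 was level with FF62, the next Flox liver. Without FF54, 8 of the 44 genes were lower, 0 higher, with a median of -0.21 on the log2 scale. The 8 make 18.2% of the list against 5.51% of all genes tested in that fit. All 8 were among the 10, and Isg15 and Cmpk2 lost their calls. The log2 fold change was then negative in 32 of the 44.

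The promoters of 6 of these genes are shown as examples of promoters that hold the ISRE core. Igtp, Gbp3 and Gbp2 had the largest excess in FF54 among the genes with a promoter entry. Ifit3, Isg15 and Rsad2 were lower in HKO and were picked after their values were seen. Each sequence is the 250 bases before the RefSeq start site (RefSeq, GRCm38.p6), on the gene's strand. Capitals mark each match to the ISRE core GAAANNGAAA on either strand, and overlapping matches run together.
Igtp (chr11:58199306-58199555, plus strand): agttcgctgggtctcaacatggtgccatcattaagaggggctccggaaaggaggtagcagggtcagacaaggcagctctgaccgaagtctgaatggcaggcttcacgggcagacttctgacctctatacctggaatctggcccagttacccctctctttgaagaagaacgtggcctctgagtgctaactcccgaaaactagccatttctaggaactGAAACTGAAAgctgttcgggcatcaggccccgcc
Gbp3 (chr3:142559794-142560043, plus strand): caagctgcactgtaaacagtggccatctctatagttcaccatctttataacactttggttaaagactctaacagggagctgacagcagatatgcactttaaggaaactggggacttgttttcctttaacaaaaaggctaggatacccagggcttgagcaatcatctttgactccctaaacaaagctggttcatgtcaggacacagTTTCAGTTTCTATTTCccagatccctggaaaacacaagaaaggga
Gbp2 (chr3:142620413-142620662, plus strand): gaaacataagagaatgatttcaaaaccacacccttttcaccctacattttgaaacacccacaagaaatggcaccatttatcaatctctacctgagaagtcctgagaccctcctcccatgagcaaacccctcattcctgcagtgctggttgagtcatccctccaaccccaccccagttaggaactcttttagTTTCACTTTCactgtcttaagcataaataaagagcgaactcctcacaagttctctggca
Ifit3 (chr19:34583279-34583528, plus strand): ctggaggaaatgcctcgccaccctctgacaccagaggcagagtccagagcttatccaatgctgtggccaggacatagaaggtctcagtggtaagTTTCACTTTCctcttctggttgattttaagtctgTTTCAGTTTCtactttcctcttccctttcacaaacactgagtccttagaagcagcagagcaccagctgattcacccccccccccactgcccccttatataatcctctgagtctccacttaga
Isg15 (chr4:156200819-156201068, minus strand): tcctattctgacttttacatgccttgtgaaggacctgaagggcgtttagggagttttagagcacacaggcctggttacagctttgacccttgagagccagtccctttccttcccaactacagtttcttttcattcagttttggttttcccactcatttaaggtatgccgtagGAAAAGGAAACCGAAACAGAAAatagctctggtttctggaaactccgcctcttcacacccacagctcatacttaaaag
Rsad2 (chr12:26456453-26456702, minus strand): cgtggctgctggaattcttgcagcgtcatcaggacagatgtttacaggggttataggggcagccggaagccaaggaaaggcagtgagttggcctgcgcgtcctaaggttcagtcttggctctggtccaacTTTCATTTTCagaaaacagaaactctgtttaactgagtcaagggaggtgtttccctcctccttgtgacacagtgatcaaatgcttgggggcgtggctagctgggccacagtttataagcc

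The ISRE core was common in promoters of the listed genes. RefSeq promoters of 300 bases (250 before and 50 after the start site) were matched by symbol for 33 of the 44 genes, as 38 promoters. The core occurred in 20 of these 38 (52.6%), from 19 genes, and in 3.44% of all 32851 promoters. Of the 7 promoters of genes called lower, 4 held it (57.1%), a share near that of the whole list. These 7 came from 6 of the 10 called genes. Mx2, Parp9, Iigp1 and Ifi27 had no promoter entry, so the share does not cover them. Counted from the start site, the match in Igtp began at position -34 and that in Gbp2 at -59. Gbp3 had matches at -45 and -39, Ifit3 at -156 and -122, Isg15 at -78, -72 and -66, and Rsad2 at -120. The GAS core TTCNNNGAA, which reads the same on both strands, occurred in 7 of the 38 (18.4%) and in 8.30% of all promoters. Among the 7 promoters of called genes it occurred in 0. A match is a run of letters and not a measured site, and where there is none the letters are only absent from this window.

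Transcription factors of the pathway were represented by Irf1, Irf7, Irf9 and Stat2, of which 1 passed. All 4 had negative log2 fold changes on TMM-scaled counts. Irf9 (chromosome 14, 55603571 to 55610030, plus strand) encodes the DNA-binding subunit of ISGF3. It was 38.3, 62.3, 62.4, 47.6 and 54.5 CPM in the Flox livers and 28.3, 31.2, 32.9, 43.4 and 30.6 CPM in the HKO livers. All HKO livers but KO55 lay below every Flox liver. Irf9 overlaps Rnf31 on the same strand by 123 bases. Its mean was 53.0 ± 10.3 CPM in Flox and 33.3 ± 5.91 in HKO (± SD, n = 5 per group), a log2 change of -0.67 (SE 0.15, adjusted p = 0.0159 by edgeR). Without FF54 it was -0.61 (adjusted p = 0.0342 by edgeR).

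Stat2, a partner of IRF9 in ISGF3, had the highest FPKM of these factors. It was 41.4, 91.2, 92.01, 63.2 and 71.3 CPM in the Flox livers and 47.99, 55.1, 69.03, 79.8 and 52.7 CPM in the HKO livers. The groups overlapped, with FF21 below every HKO liver and FF30 and FF54 above them all (log2 fold change -0.24, SE 0.22, adjusted p = 0.531 by edgeR). Irf1 and Irf7, which switch on interferon and antiviral genes, had log2 fold changes of -0.20 and -0.16 and did not pass. In Irf1 FF54 held 40.9 CPM against 14.5 to 25.9 in the other Flox livers. Without FF54 the median of the 4 factors was -0.05, and on the deposited FPKM only Irf9 had a negative log2 fold change.

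None of the 5 nucleic acid sensors passed the edgeR test. These are Ddx58 (RIG-I), Ifih1 (MDA5) and Dhx58 (LGP2), helicases that bind viral RNA, Zbp1, which binds Z-form nucleic acid, and Eif2ak2 (PKR), a kinase that shuts off translation when it binds double-stranded RNA. Dhx58 had the smallest p of the group and the highest FPKM. It was 18.8, 22.9, 28.6, 23.3 and 17.5 CPM in the Flox livers and 14.8, 11.9, 15.7, 21.1 and 16.1 CPM in the HKO livers. HKO livers other than KO55 lay below every Flox liver, with log2 fold change -0.48 (SE 0.16, adjusted p = 0.0792 by edgeR). DESeq2 called it (adjusted p = 0.0372), and so did edgeR without KO55, with a range of 0.0335 to 0.353 over the alternatives. Ddx58, Ifih1 and Eif2ak2 had log2 fold changes of -0.11 to -0.19, and all 3 turned positive on the deposited FPKM. Zbp1 was 9.59, 15.6, 32.4, 11.6 and 6.71 CPM in the Flox livers and 6.34, 6.46, 8.87, 12.5 and 8.28 CPM in the HKO livers, and its log2 fold change of -0.84 (SE 0.39) became -0.36 without FF54.

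All 4 IFIT genes had negative log2 fold changes on every scale tried, and 1 passed. IFIT proteins bind viral RNA and block its translation, and the genes lie within 99.3 kb of chromosome 19. Ifit3 (34583531 to 34588731) was 30.6, 24.7, 58.7, 43.1 and 38.8 CPM in the Flox livers and 16.3, 17, 24.8, 26.8 and 21.8 CPM in the HKO livers. KO22, KO38 and KO64 lay below every Flox liver, and KO44 and KO55 lay just above FF30 and below the others. Its mean fell from 39.2 ± 13.02 to 21.3 ± 4.65 CPM (± SD, n = 5 per group), a log2 change of -0.88 (SE 0.23, adjusted p = 0.0347 by edgeR). Without FF54 it was -0.69 (adjusted p = 0.0497 by edgeR). Ifit3b, its near copy, had a log2 change of -0.78 (SE 0.25, adjusted p = 0.0726 by edgeR). The pair share 31.7% of the 100-base windows of Ifit3 and 27.4% of those of Ifit3b, so reads may have been divided between them.

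Ifit1 was 19.99, 24.1, 52.03, 32.8 and 27.9 CPM in the Flox livers and 9.70, 10.9, 19.8, 27.7 and 15.6 CPM in the HKO livers. FF54 was the highest liver and KO22 and KO38 the lowest, and the log2 fold change was -0.91 (SE 0.33, adjusted p = 0.109 by edgeR). Ifit2 was 8.68, 5.27, 15.1, 10.6 and 13.3 CPM in the Flox livers and 6.57, 5.02, 0.514, 10.4 and 9.64 CPM in the HKO livers. KO44 had 33 counts of Ifit2, and the next lowest liver had 9.77 times its CPM, while Ifit1, Ifit3 and Ifit3b in KO44 lay above those in KO22 and KO38. A gap of at least 8-fold below the next liver, with that liver at 1 CPM or more, occurred in 8 of 11057 tested genes with a mean of at least 200 counts. This criterion and its 1 CPM minimum were set after the values were seen. The log2 fold change of Ifit2 was -0.72 with an SE of 0.58.

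None of the 6 genes of the OAS family passed. Its enzymes make oligoadenylates in response to double-stranded RNA. Of the 6, 3 log2 fold changes were negative and 3 positive, and their median was -0.04. Without FF54 the median was 0.21, and on the deposited FPKM 0 of 6 were negative. Oasl1, which in mice blocks translation of IRF7, had the highest FPKM and the smallest p. It was 26.2, 25.9, 35.4, 26.2 and 19.9 CPM in the Flox livers and 25.8, 19.2, 24.7, 26.2 and 21.4 CPM in the HKO livers. FF54 was above all other livers and the rest overlapped (log2 fold change -0.19, SE 0.14, adjusted p = 0.425 by edgeR). Oas3 had the largest positive log2 fold change among the 44 genes, 0.38 (SE 0.34), and 0.77 (SE 0.27, adjusted p = 0.0955 by edgeR, with a range of 0.0955 to 0.759 over the alternatives) without FF54. It was 1.63, 1.96, 4.001, 1.64 and 0.970 CPM in the Flox livers and 3.16, 1.66, 3.02, 3.02 and 2.37 CPM in the HKO livers. FF63 was the lowest liver and FF54 the highest. Oas1a and Oas1g share 40.9% and 38.2% of their 100-base windows with each other, so their counts are uncertain between the copies.

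Isg15 was the only gene of 5 in the ISG15 and TRIM group that passed, and all 5 log2 fold changes were negative on TMM-scaled counts. It encodes a ubiquitin-like protein that is joined to other proteins and also secreted (chromosome 4, 156199455 to 156200796, minus strand). It was 13.2, 13.8, 25.7, 20.2 and 13.1 CPM in the Flox livers and 6.91, 7.45, 8.75, 14.9 and 9.17 CPM in the HKO livers. The HKO livers other than KO55 were below the whole Flox range, and KO55 lay above FF21, FF30 and FF63. The mean was 17.2 ± 5.61 CPM in Flox and 9.43 ± 3.18 in HKO (± SD, n = 5 per group), a log2 change of -0.87 (SE 0.25, adjusted p = 0.0497 by edgeR). Without FF54 it was -0.68 (SE 0.23, adjusted p = 0.0899 by edgeR) and did not pass. Without KO55 and KO64 it was -1.16 (adjusted p = 0.0301 by edgeR).

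Usp18, the protease that removes ISG15, had a log2 change of -0.68 (SE 0.22, adjusted p = 0.0738 by edgeR), and Herc6, an ISG15 ligase in mice, -0.46 (SE 0.18, adjusted p = 0.129 by edgeR). Trim25, a ubiquitin ligase that acts on RIG-I, ranged from 99.2 to 114 CPM in Flox and from 87.2 to 116 CPM in HKO. It was among the 4 genes in which FF54 was not the highest Flox liver. Its log2 fold change was -0.08 (SE 0.09), and that of Trim30a was -0.03 (SE 0.20), and both were positive on the deposited FPKM.

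Of 4 genes for ADP-ribosyltransferases and their partner Dtx3l, only Parp9 passed, and all 4 log2 fold changes were negative on TMM-scaled counts. PARP9 pairs with the ubiquitin ligase DTX3L, and their genes adjoin on chromosome 16, where they overlap by 682 bases on opposite strands. Parp9 (35938470 to 35972605, plus strand) was 67.3, 99.7, 106, 91.5 and 85.7 CPM in the Flox livers and 63.3, 56.8, 58.04, 71.9 and 63.8 CPM in the HKO livers. FF21, the lowest Flox liver, lay below KO55, and the other 4 HKO livers lay below every Flox liver. The mean was 90.1 ± 15.0 CPM in Flox and 62.8 ± 5.99 in HKO (± SD, n = 5 per group), a log2 change of -0.52 (SE 0.11, adjusted p = 0.0146 by edgeR). Without FF54 it was -0.46 (adjusted p = 0.0304 by edgeR). Dtx3l was 39.3, 76.9, 47.7, 59.4 and 64.1 CPM in the Flox livers and 47.99, 45.3, 35.6, 45.9 and 43.02 CPM in the HKO livers. FF30 was the highest and KO44 the lowest, and the log2 fold change was -0.40 (SE 0.16, adjusted p = 0.133 by edgeR). Parp12 and Parp14 had log2 fold changes of -0.09 (SE 0.14) and -0.20 (SE 0.19), and both were positive on the deposited FPKM.

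Of 6 guanylate-binding proteins (GBP) and immunity-related GTPases (IRG), Iigp1 and Irgm1 fell, and all 6 had negative log2 fold changes on every scale tried. These GTPases gather on the vacuoles of intracellular bacteria and parasites, and Irgm1 restrains the other IRG proteins. Iigp1 was 264, 354, 515, 334 and 292 CPM in the Flox livers and 225, 219.7, 222, 283 and 187 CPM in the HKO livers. The HKO livers other than KO55 were below the whole Flox range. Its mean fell from 351.9 ± 97.6 to 227 ± 35.0 CPM (± SD, n = 5 per group), a log2 change of -0.63 (SE 0.17, adjusted p = 0.0376 by edgeR). Without FF54 it was -0.45 (SE 0.12, adjusted p = 0.0427 by edgeR).

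Irgm1 (chromosome 11, 48861968 to 48871683, minus strand) was 66.03, 89.9, 142, 83.1 and 73.6 CPM in the Flox livers and 42.8, 47.7, 53.5, 73.4 and 47.5 CPM in the HKO livers. KO55 reached the range of the Flox livers, and the other HKO livers lay below it. Its mean fell from 90.8 ± 29.7 to 53.0 ± 12.03 CPM (± SD, n = 5 per group), a log2 change of -0.78 (SE 0.21, adjusted p = 0.0424 by edgeR), and -0.56 without FF54 (adjusted p = 0.0443 by edgeR). Igtp was 37.2, 58.4, 157, 50.5 and 38.2 CPM in the Flox livers and 30.2, 29.8, 39.9, 57.6 and 32.02 CPM in the HKO livers, so FF54 held 3.54 times the median of the other Flox livers. The log2 fold change of Igtp was -0.85 (SE 0.40) with FF54 and -0.28 (SE 0.22) without it. Igtp overlaps Irgm2 on the same strand by 7974 bases, so reads may be shared between them. Gbp2 was 11.2, 9.02, 30.7, 11.3 and 11.7 CPM in the Flox livers and 6.99, 8.50, 10.01, 11.4 and 9.08 CPM in the HKO livers. Outside FF54 the Gbp2 levels of the groups overlapped, and its log2 fold change went from -0.68 (SE 0.32) to -0.23 (SE 0.15). Gbp3 and Gbp7 went from -0.66 (SE 0.37) and -0.50 (SE 0.29) to -0.19 and -0.15.

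The remaining 10 effectors included Mx2, with the largest log2 fold change of the 44 genes in size. Mx2 (chromosome 16, 97535308 to 97560900, plus strand) encodes a dynamin-like GTPase that restricts viruses. It was 11.5, 17.7, 15.1, 13.9 and 13.5 CPM in the Flox livers and 5.89, 5.45, 9.32, 9.68 and 6.71 CPM in the HKO livers. Every HKO liver was below every Flox liver, which held for Mx2 alone among the 44 genes, against 6.48% of all tested genes. In 0 of the 44 was every HKO liver above every Flox liver, against 4.41%. The mean of Mx2 fell from 14.3 ± 2.30 to 7.41 ± 1.97 CPM (± SD, n = 5 per group), a 1.93-fold difference with log2 fold change -0.95 (SE 0.18, adjusted p = 0.0071 by edgeR). Without FF54 the log2 fold change was -0.93 (adjusted p = 0.0161 by edgeR). Its neighbour Mx1 had a log2 change of -0.71 (SE 0.35, adjusted p = 0.213 by edgeR) and was 2.80 to 8.27 CPM in Flox and 2.01 to 5.90 CPM in HKO.

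Rsad2 encodes viperin, a radical SAM enzyme that makes a chain-terminating nucleotide, and Cmpk2, a nucleotide kinase, lies beside it on chromosome 12 (26442746 to 26479837 for the pair). Rsad2 was 53.6, 30, 69.8, 50.4 and 61.3 CPM in the Flox livers and 32.5, 32.2, 35.5, 30.6 and 27.2 CPM in the HKO livers. FF30 was below KO22, KO38, KO44 and KO55, and the other 4 Flox livers were above all HKO livers. Its log2 fold change was -0.74 (SE 0.18, adjusted p = 0.0262 by edgeR), and -0.63 without FF54 (adjusted p = 0.0472 by edgeR). Cmpk2 was 18.5, 15.1, 23.9, 18.5 and 19.3 CPM in the Flox livers and 11.7, 11.1, 15.2, 15.9 and 12 CPM in the HKO livers. KO44 and KO55 lay above FF30, the lowest Flox liver. Its log2 fold change was -0.53 (SE 0.14, adjusted p = 0.0292 by edgeR), and -0.44 without FF54 (adjusted p = 0.0577 by edgeR), which did not pass.

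Ifi27, a small hydrophobic protein induced by interferon, was 60, 88.5, 70.2, 86.03 and 62.5 CPM in the Flox livers and 41.6, 43.9, 45.7, 67.8 and 42.6 CPM in the HKO livers. KO55 lay above FF21, FF63 and the other HKO livers, which all lay below the Flox range. Its log2 fold change was -0.60 (SE 0.16, adjusted p = 0.0312 by edgeR), and -0.62 without FF54 (adjusted p = 0.0483 by edgeR). Bst2, or tetherin, which holds budding viruses at the cell surface, had the highest FPKM of the 44 genes. It was 84.4, 85.2, 105, 89.7 and 84.97 CPM in the Flox livers and 80.9, 93.95, 91.99, 73.1 and 79.9 CPM in the HKO livers. The groups overlapped, and the log2 fold change was -0.10 (SE 0.09, adjusted p = 0.51 by edgeR), 0.12 on the deposited FPKM. Rtp4 and Xaf1 had log2 fold changes of -0.54 (SE 0.24) and -0.40 (SE 0.24). Ifi44 and Samd9l had positive ones of 0.10 (SE 0.29) and 0.11 (SE 0.15).

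**Figure D2:**
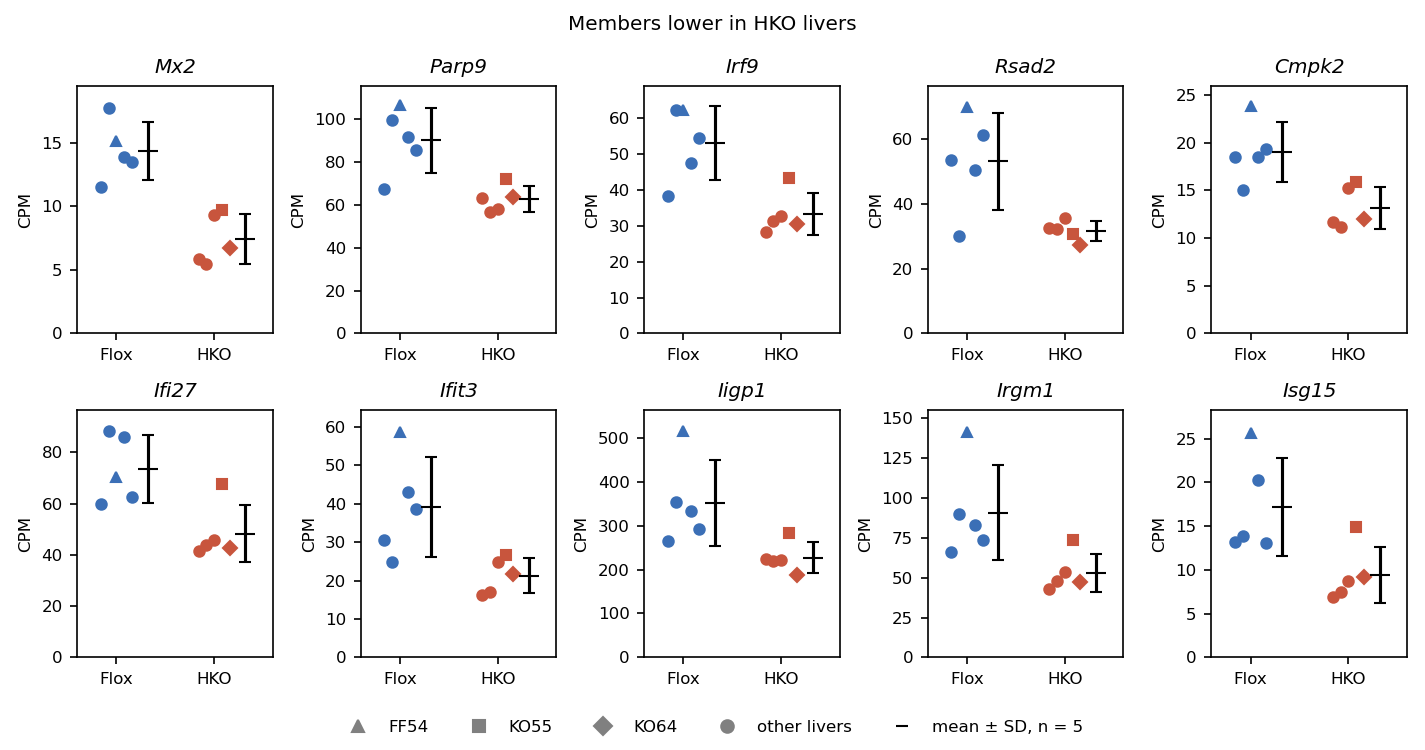
CPM in each liver for the 10 genes that were lower in HKO, ordered by adjusted p, with mean ± SD (n = 5) beside each group; triangles are FF54, squares KO55 and diamonds KO64. Mx2 is the gene whose groups do not overlap, from 11.5 to 17.7 CPM in Flox and from 5.45 to 9.68 CPM in HKO.

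When each liver was left out in turn, 2 of the 10 calls held in every fit. Mx2 was called in all 10 such fits (edgeR adjusted p up to 0.0247) and Parp9 in all 10 (up to 0.0419). Irf9 was called in 9 and lost its call without KO64 (adjusted p = 0.0535 by edgeR). Ifi27 and Iigp1 were called in 4 fits each and lost without FF30, FF62, KO22, KO38, KO44 or KO64 (up to 0.0934 and 0.105). Ifit3 was lost without FF62, FF63, KO22, KO38, KO44 or KO64 (up to 0.0803). Rsad2 was lost without FF62, FF63, KO22, KO38, KO55 or KO64 (up to 0.074), and Cmpk2 without FF54, FF62, FF63, KO22, KO38 or KO64 (up to 0.0834). Irgm1 held only without FF21, FF54 or KO55 (up to 0.109) and Isg15 only without FF21 or KO55 (up to 0.118). The number called lower was 2 without KO64, 3 without FF62, KO22 or KO38, 5 without FF63 or KO44, 6 without FF30, and 12 without FF21 or KO55.

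Across 22 alternative settings Mx2 passed in 22, with edgeR, DESeq2 or limma adjusted p from 2.25e-05 to 0.0378. Irf9 passed in 18 (0.000583 to 0.105) and Parp9 in 18 (0.000776 to 0.166). Ifi27 passed in 13 (0.00368 to 0.14), Iigp1 in 11 (0.00446 to 0.162), Ifit3 in 10 (0.00171 to 0.0946) and Rsad2 in 10 (0.00149 to 0.21). Cmpk2 passed in 11 (0.00485 to 0.185), Irgm1 in 9 (0.00317 to 0.127) and Isg15 in 9 (0.00636 to 0.118). The log2 fold change of each of these 10 genes was negative in every setting.

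FF54 had the highest CPM of the Flox livers in 40 of the 44 genes (90.9%), and of all 10 livers in the same number. Among all tested genes FF54 was the highest Flox liver in 18.4%. FF54 was singled out for its known high level of interferon-stimulated genes, so this count is a description. The exceptions were Trim25, Dtx3l, Mx2 and Ifi27. The ratio of FF54 to the median of the other 4 Flox livers had a median of 1.66 over the 44 genes, with a range of 0.772 to 3.54, and 0.999 over all tested genes. It was at least 1.5 in 29 of the 44, against 10.2% of all genes, and at least 2 in 8, against 4.39%. GBP and IRG genes had the highest group median, 2.54, and Igtp, Gbp3, Zbp1 and Gbp2 the highest single ratios of 3.54, 3.19, 3.06 and 2.73. The 10 effectors had a median ratio of 1.32, with a range of 0.945 to 1.96. The OAS genes had a median ratio of 1.93, and 0 of the 6 passed the test between the groups.

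**Figure D3:**
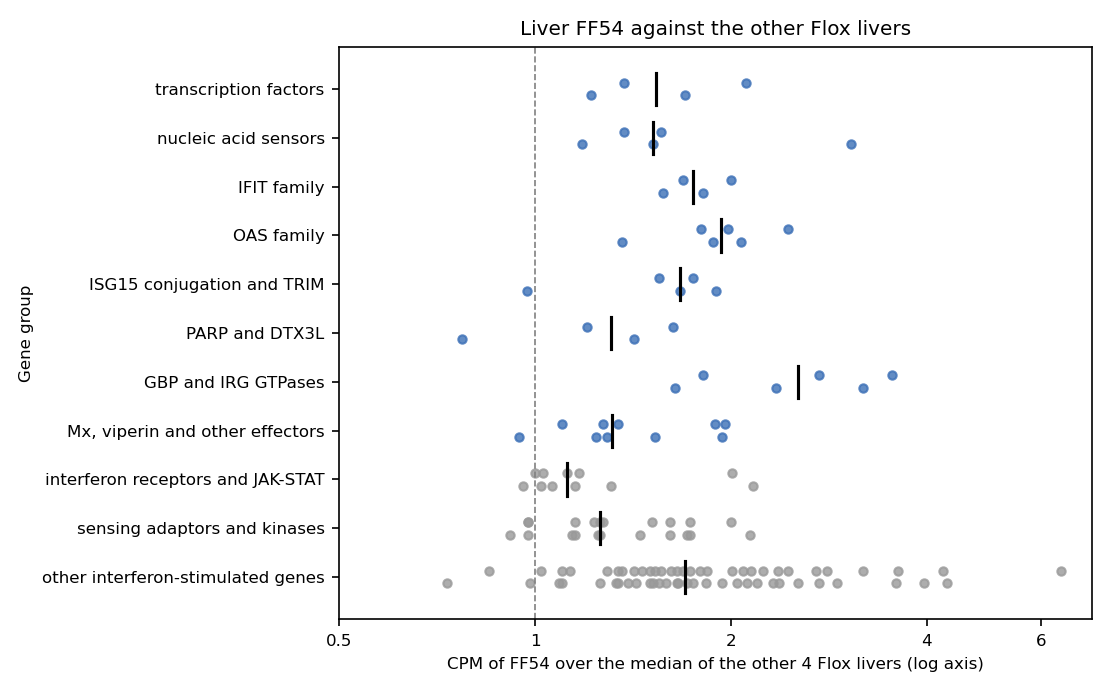
Ratio of the CPM in FF54 to the median CPM of the other 4 Flox livers, on a log axis, for each gene (points) and group (black line, median), in blue for the 44 genes and grey for other genes of the pathway. GBP and IRG genes lie furthest to the right among the 44, with a median of 2.54, and receptor and JAK-STAT genes lie near 1, with a median of 1.12.

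**Figure D4:**
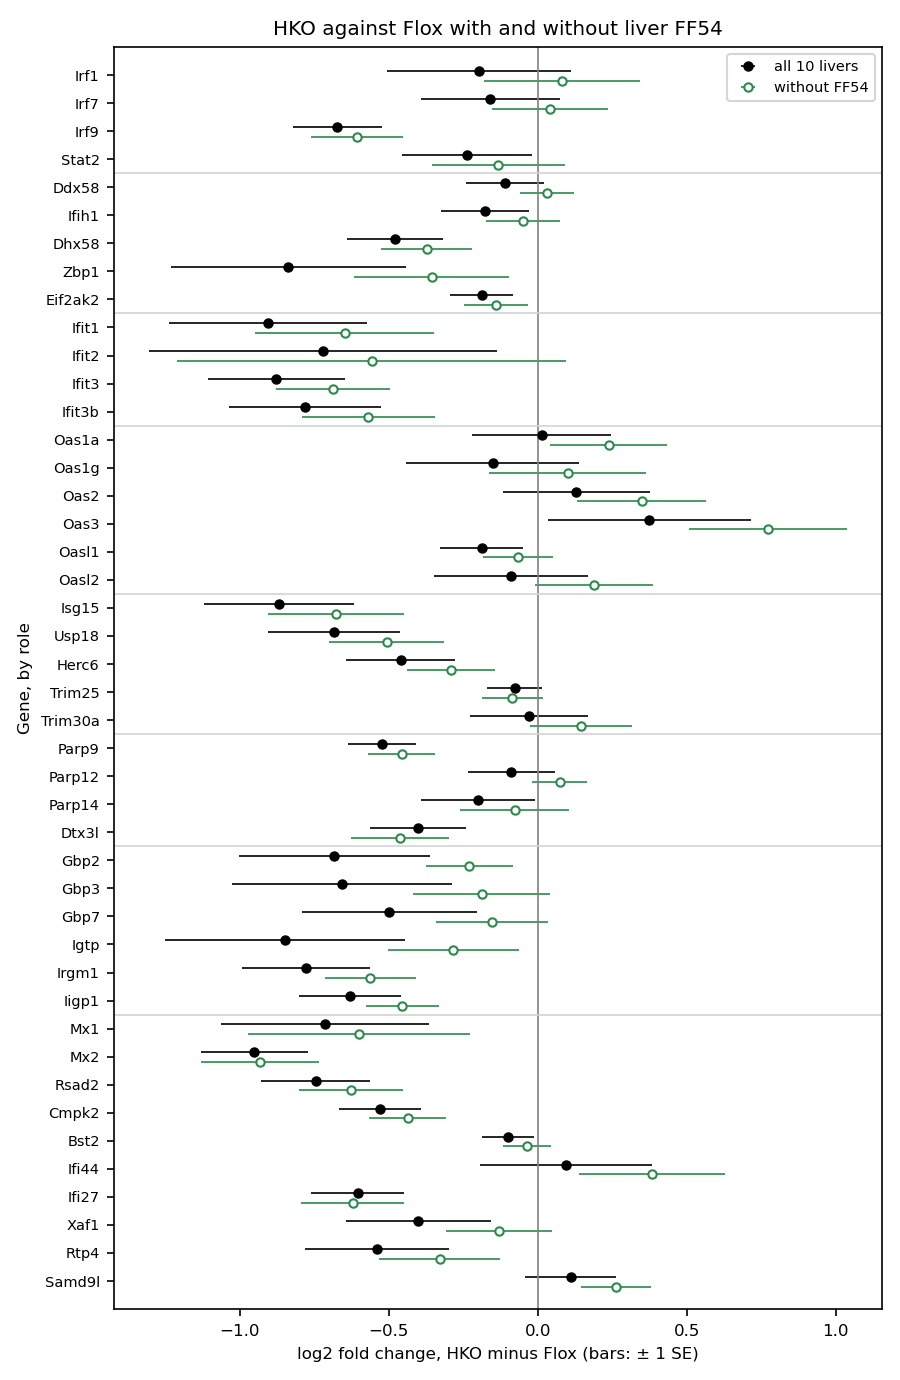
Log2 fold change of each of the 44 genes, HKO minus Flox, with 1 SE, for all 10 livers (black) and without FF54 (green). Mx2, Irf9 and Parp9 barely move, from -0.95 to -0.93, from -0.67 to -0.61 and from -0.52 to -0.46, while Igtp moves from -0.85 to -0.28.

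Markers of immune cells also differed between livers. Kupffer cell markers (Clec4f, Vsig4, Cd5l, Timd4 and Marco) summed to 345 CPM in FF54, 108 to 219.5 CPM in the other Flox livers and 213 to 299 CPM in HKO. None of the 5 passed the test and none was at 0. T and NK cell markers summed to 6.94 CPM in FF54, 3.56 to 5.10 CPM in the other Flox livers and 2.79 to 4.86 CPM in HKO, and 1 of 9 tested was lower (Cd4). Plasmacytoid dendritic cell markers (Siglech, Ccr9, Klk1, Cd209d, Pacsin1 and Cox6a2) summed to 8.04 CPM in FF54 and at most 8.97 CPM in Flox. In KO55 and KO64 they summed to 16.8 and 18.8 CPM, against at most 9.88 CPM in the other livers. Of the 5 tested, 0 passed. KO55 and KO64 also held the epidermal and muscle transcripts, and the part of other tissue in this sum was not tested. Recruited macrophage and monocyte markers summed to 88.8 CPM in FF54, within the Flox range of 59.0 to 107.5 CPM, and to 165 CPM in KO64. The other HKO livers held 79.6 to 104.7 CPM, within the Flox range, and 4 of the 7 genes were higher in HKO. B cell markers (2.36 to 4.95 CPM), neutrophil markers (0.606 to 6.54 CPM) and sinusoidal endothelial markers (91.7 to 163 CPM) had no gene that passed. The part of these cells in the levels of the 44 genes was not tested.

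KO55 was the highest HKO liver in 36 of the 44 genes (81.8%), against 19.6% of all tested genes, and the highest of all 10 livers in 0. Without KO55 and KO64, the livers with epidermal and muscle transcripts, 5 of the 44 genes were lower: Mx2, Irf9, Parp9, Ifi27 and Isg15. They make 11.4% of the list against 2.91% of all genes in that fit. The median over the 44 was then -0.59. Without FF54, KO55 and KO64, 6 of the 44 were lower (13.6%, against 2.68% of all genes): Mx2, Irf9, Ifi27, Isg15, Irgm1 and Iigp1. The median was -0.38. In the mean level of the 44 genes KO64 lay within the range of KO22, KO38 and KO44, and KO55 above it.

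Separation of the groups depended on a few livers. Without KO55, in 10 of the 44 genes every HKO liver was below every Flox liver, against 7.14% of all genes tested. The number was 6 without FF21 (8.07% of all genes) and 5 without FF30 (7.39%). It was 10 without KO55 and KO64 (8.39%) and 10 without FF54, KO55 and KO64 (10.1%). In the other leave-outs it stayed at 1. KO55 was the highest HKO liver in 36 of the 44 genes, against 19.6% of all tested genes. A larger rise in the 44 than in all genes without KO55 can follow from that, so no conclusion is drawn from it.

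Levels were compared between genes on the deposited FPKM, which divide counts by gene length. Bst2 had the highest mean over the 10 livers, 84.9 FPKM, followed by Iigp1 at 43.4, Ifi27 at 36.2 and Igtp at 23.0 FPKM. Isg15, Trim25 and Ifit3 followed at 16.5, 15.8 and 15.0 FPKM. The lowest were Oas3 at 0.294 and Ifi44 at 0.571 FPKM. The 10 genes that fell ranged from 2.60 FPKM (Mx2) to 43.4 FPKM (Iigp1).

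Interferons themselves were barely detected. Of 21 interferon genes listed, 5 were matched in the table (Ifnb1, Ifng, Ifnk, Ifnz and Ifna4), none had enough counts to be tested, and the highest was 15 counts in any liver. Of 12 receptor and JAK-STAT genes, 11 were tested, 1 fell and 2 rose, where 6.40% of all tested genes fell and 4.86% rose. Without FF54, 0 were lower and 2 higher. Il10rb, a chain of the interferon lambda and interleukin-10 receptors, was 7.64, 6.72, 7.55, 7.60 and 5.29 CPM in the Flox livers and 9.37, 10.9, 13.5, 11.8 and 12.6 CPM in the HKO livers. Every HKO liver was above every Flox liver (log2 fold change 0.74, SE 0.13, adjusted p = 0.00575 by edgeR). Ifngr1, the ligand-binding chain of the interferon gamma receptor, rose by a log2 change of 0.45 (SE 0.12, adjusted p = 0.039 by edgeR). Its call was lost without FF30, FF62, FF63, KO22, KO44 or KO64, with an edgeR, DESeq2 or limma adjusted p of 0.00521 to 0.0902 over the 22 settings.

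Ifnar2, a chain of the type I interferon receptor, was 61.5 to 69.1 CPM in Flox and 54.0 to 63.1 CPM in HKO. Its log2 fold change was -0.22 (SE 0.06, adjusted p = 0.0411 by edgeR), and 0.00 on the deposited FPKM. The call held in 8 of 22 settings (edgeR, DESeq2 or limma adjusted p from 0.00944 to 0.968) and in the leave-outs was kept only without FF63 or KO44. Ifnar1 and Ifngr2, the partner chains, had log2 fold changes of 0.07 (SE 0.09) and 0.19 (SE 0.08) and did not pass.

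Among 21 sensing adaptors and kinases tested, 1 fell and 2 rose, beside 6.40% of all tested genes lower and 4.86% higher. Of these calls, Irf3 and Traf3 are described. Without FF54, 1 was lower and 5 were higher, where 5.51% of all genes in that fit were lower and 4.59% higher. Irf3, which turns on interferon beta after viral sensing, was 49.6, 60.5, 50.4, 50.5 and 52.9 CPM in the Flox livers and 42.5, 46.3, 40.01, 38.9 and 37.4 CPM in the HKO livers. Every HKO liver was below every Flox liver (log2 fold change -0.36, SE 0.08, adjusted p = 0.012 by edgeR). Traf3, an adaptor of the same route, had a log2 change of 0.31 (SE 0.08, adjusted p = 0.0307 by edgeR). Its call was lost without FF30, FF62, FF63, KO38, KO44 or KO64. Without KO55 and KO64 together none of the 21 passed, and adjusted p of Irf3 was 0.0851 by edgeR (0.000575 to 0.206 over the alternatives).

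Of 60 further interferon-stimulated genes outside the list, 7 fell, 1 rose and 52 did not pass, beside 6.40% of all tested genes lower and 4.86% higher. The median log2 fold change of the 60 was -0.10, against -0.47 for the 44 genes. Without FF54, 6 were lower and 4 higher (5.51% and 4.59% of all genes). Ifitm3, a membrane protein that blocks virus entry, was 213, 205, 265, 237 and 207 CPM in the Flox livers and 115, 115, 133, 143 and 121 CPM in the HKO livers. The groups did not overlap, with log2 fold change -0.85 (SE 0.09, adjusted p = 4.87e-04 by edgeR). This adjusted p was smaller than that of any of the 44. Its relative Ifitm2 fell by 0.51 on the log2 scale (SE 0.07, adjusted p = 0.00145 by edgeR). Nmi, Ogfr and Ifi35 had log2 fold changes of -0.52 (SE 0.10), -0.33 (SE 0.07) and -0.41 (SE 0.09), with adjusted p of 0.00985, 0.0111 and 0.0154 by edgeR. In these 5 genes the groups were separate, HKO below Flox. Nmi, Ogfr and Ifi35 passed in 18, 17 and 18 of 22 settings, with edgeR, DESeq2 or limma adjusted p up to 0.112, 0.421 and 0.246. In Helz2 and Lgals9, the other genes that fell, the groups overlapped. Their calls were lost without KO55 and KO64 (adjusted p = 0.1 and 0.139 by edgeR), and so was that of Ogfr (adjusted p = 0.0536 by edgeR). Slfn5 rose, with log2 fold change 0.55 (SE 0.13, adjusted p = 0.0196 by edgeR), and lost its call without FF63 (0.00144 to 0.106 over the alternatives). FF54 was the highest Flox liver in 48 of the 60, with a median ratio of 1.70. The ratio reached 6.44 in Tgtp1, 4.30 in Gbp10 and 4.24 in Cxcl9, the largest in this set and named after their values were seen. Without KO55 and KO64, 4 of the 60 were lower and 0 higher, beside 2.91% and 2.45% of all genes in that fit.

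Many of the 44 genes are neighbours. Within a window of 500000 bases, 20 of them fall into 7 clusters, so they are not independent of each other in position. Rsad2 and Cmpk2 both fell. The cluster of Oas1a, Oas1g, Oas2 and Oas3 on chromosome 5 and that of Gbp2, Gbp3 and Gbp7 on chromosome 3 held no gene that passed. Gene coordinates are those of the deposited table. Its genome build was not given in the sources used here.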

How the data were processed

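RNA-seq of 10 livers was analysed from 1 deposited table. Its whole-number read counts per gene and its FPKM (counts divided by gene length and library size) were made by the authors, per the file headers. Per the submitters' processing notes, the tools included edgeR, DESeq2, StringTie 2.1.6, HISAT2 2.2.1 and cutadapt 1.9, with no role stated. Genome build, annotation and the use of strand in counting were not given in the sources used here. Libraries marked strand with dUTP, per the labels' protocols. All 20 columns of values were mapped to livers (0 were not).

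Counts were filtered with filterByExpr, scaled by TMM and tested with the quasi-likelihood test of edgeR 4.0.16 in R 4.3.3, adjusted over 18065 genes. Alternatives used DESeq2 1.42.0, and limma 3.58.1 on log2(FPKM + 0.5) for genes at or above 0.1 FPKM in 5 livers. The code was tested on simulated counts. P-values weigh the difference between the groups against the spread between livers within groups. No title number occurs in both groups, so livers were not paired. Promoters came from RefSeq (GRCm38.p6).

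The genes and the lists were chosen with earlier results of these data known. Values in every liver are given for each gene past the threshold and, per role, for the gene with the highest FPKM and the smallest p. Those of Ifit1, Ifit2, Oas3, Zbp1, Dtx3l, Igtp and Gbp2 were added after values were seen. Results for some genes of the pathway lists are not reported here.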

Additional observations from a re-analysis of the deposited data

Results flagged for a closer look

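Of 88 sets of 5 livers (44 genes in each group), 11 had a highest or lowest liver whose gap to the nearest exceeded Dixon's 95% critical value of 0.71 of the range, and chance gives about 1 in 20 such sets when they are independent. In 9 of them the liver was FF54, highest in Flox. FF54 had been named for its high level of these genes, and the genes vary together, so that count is a description. Its CPM were 8.325 for Oas1a, 16.99 for Oasl2, 66.46 for Parp12 and 30.7 for Gbp2. They were 31.72 for Gbp3, 36.32 for Gbp7, 156.7 for Igtp, 105.4 for Bst2 and 19.74 for Xaf1. In the other sets the liver was KO55, highest in HKO, at 14.87 CPM for Isg15 and 67.76 CPM for Ifi27.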

How the results depend on the processing

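No gene of the 44 was called higher under any of 22 alternative settings. Called lower were 10 genes, and 1 with limma on log2(FPKM + 0.1), log2(FPKM + 0.5) and log2(FPKM + 1), 5 with no filter on low counts, 5 without KO55 and KO64, 6 without FF54, KO55 and KO64, and 2 to 12 when a liver was left out. The median log2 fold change of -0.47 became -0.207, -0.174 and -0.148 with limma at those pseudocounts, -0.209 without FF54, and -0.558 to -0.209 when a liver was left out. The groups were separate in 1 gene, in 10 without KO55 and KO64, in 10 without FF54, KO55 and KO64, and in 1 to 10 when a liver was left out. Over all genes 2034 were called, against 3192 by DESeq2, 3541, 3482 and 3457 by limma, 993 without KO55 and KO64, 961 without all of FF54, KO55 and KO64, and 1189 to 2220 when a liver was left out. Of the pathway lists 14 genes were called, 5 without KO55 and KO64, 7 without FF54, KO55 and KO64, and 8 to 18 when a liver was left out. Signs were traced here for 14 genes: the 10 that fell and Stat2, Dhx58, Oasl1 and Bst2. Among them, with limma the sign turned positive in Bst2 (0.122, 0.121 and 0.12), Oasl1 (0.047, 0.044 and 0.041) and Stat2 (0.016, 0.013 and 0.011). Among the same 14, without FF54, KO55 and KO64 it turned positive in Bst2 (0.055). Over all 44 genes the sign was negative in 39, in 25 with limma on log2(FPKM + 0.5) and in 32 without FF54. FPKM without TMM scaling raise the median of all genes by 0.15 in HKO. The cause of the other changes was not tested. FF54 was highest among Flox in 40 genes on CPM and on FPKM. No paired analysis was possible because the title numbers are not shared between the groups.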
